A study of Mus musculus with 6 samples.

Results

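Sugar uptake and fructose use by the small intestine were followed through 8 genes in RNA-seq of small intestine from 3 Lgr5-2A-DTR libraries (DTR) and 3 wild-type libraries (WT). The genes were chosen by name: the sodium-coupled transporters Slc5a1 and Slc5a9, the facilitative transporters Slc2a1, Slc2a2 and Slc2a5, and the enzymes Khk, Fbp1 and G6pc. All 8 are among the 55487 genes in the table of log2 RPKM (reads scaled to gene length and library depth) and all 8 are among the 15563 genes whose mean log2 RPKM over the 6 libraries exceeded -2 and which were therefore tested. DTR mice carry the diphtheria toxin receptor at the Lgr5 locus, which makes cells that express Lgr5, the marker of crypt base stem cells, sensitive to diphtheria toxin. DTR and WT mice alike were C57BL/6 adults older than 8 weeks, both received 20 µg of toxin per kg daily for 4 days, and tissue was taken 6 h after the last dose. No group without toxin was analysed here, and the comparison asks how transcripts of the tissue differ when Lgr5-positive cells are targeted.

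Dietary sugar crosses the enterocyte by a relay of carriers. SGLT1, the product of Slc5a1, brings glucose and galactose in from the lumen together with sodium, and GLUT5, the product of Slc2a5, brings in fructose. Inside the cell ketohexokinase (Khk) phosphorylates fructose, the product is split, and the fragments can be burned, turned into fat or rebuilt into glucose through fructose-bisphosphatase (Fbp1) and glucose-6-phosphatase (G6pc). GLUT2, the product of Slc2a2, carries glucose and fructose out on the blood side. GLUT1, the product of Slc2a1, is the housekeeping glucose carrier of dividing cells and endothelium.

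Reads assigned to genes numbered 61404574 to 64972540 in DTR libraries and 62092869 to 76596766 in WT libraries. Lgr5 itself had 22, 0 and 34 reads in DTR replicates 1, 2 and 3, against 315, 254 and 229 reads in WT replicates 1, 2 and 3. Xist had 22432 to 24279 reads in DTR libraries and 16 to 38 reads in WT libraries, while 4 genes of the Y chromosome (Uty, Kdm5d, Eif2s3y and Ddx3y) had 0 reads in DTR libraries and 3999 to 12259 reads each summed over WT libraries, so genotype and sex cannot be told apart. Pearson's r across tested genes was 0.920 to 0.939 within DTR, 0.970 to 0.973 within WT and 0.839 to 0.928 between the groups. Of 8 markers of distal small intestine, the defining ileal genes Fabp6 and Slc10a2 stood at no more than 0.538 RPKM in any library, while Slc51a (52.1 to 89.1 RPKM over all libraries) and Slc51b (45.0 to 201 RPKM) were well expressed. Of the 4 tested, Gzma, a granzyme gene of lymphocytes, was lower (57.7 to 107 RPKM in DTR and 167 to 274 RPKM in WT), and the 8 summed to 176 to 351 RPKM in DTR and 319 to 429 RPKM in WT. In bulk tissue, fewer cells of a type cannot be told apart from less RNA per cell.

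Of the 8 genes, 2 were lower in DTR, Slc2a5 and Slc2a2, and 1 was higher, Slc2a1, at a Benjamini-Hochberg adjusted p under 0.05 in limma, with the adjustment made over all tested genes. Among all tested genes 8.74% passed as lower and 9.54% as higher. DTR and WT values did not overlap for 6 of the 8 genes, 5 of them lower and 1 higher, against 22.6% of all tested genes that lay wholly lower and 25.1% that lay wholly higher. The median log2 change of the 8 genes was -0.48, against 0.03 for all tested genes. The 8 genes were chosen with earlier results of these data known, so these counts describe them and carry no test.

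**Figure D1:**
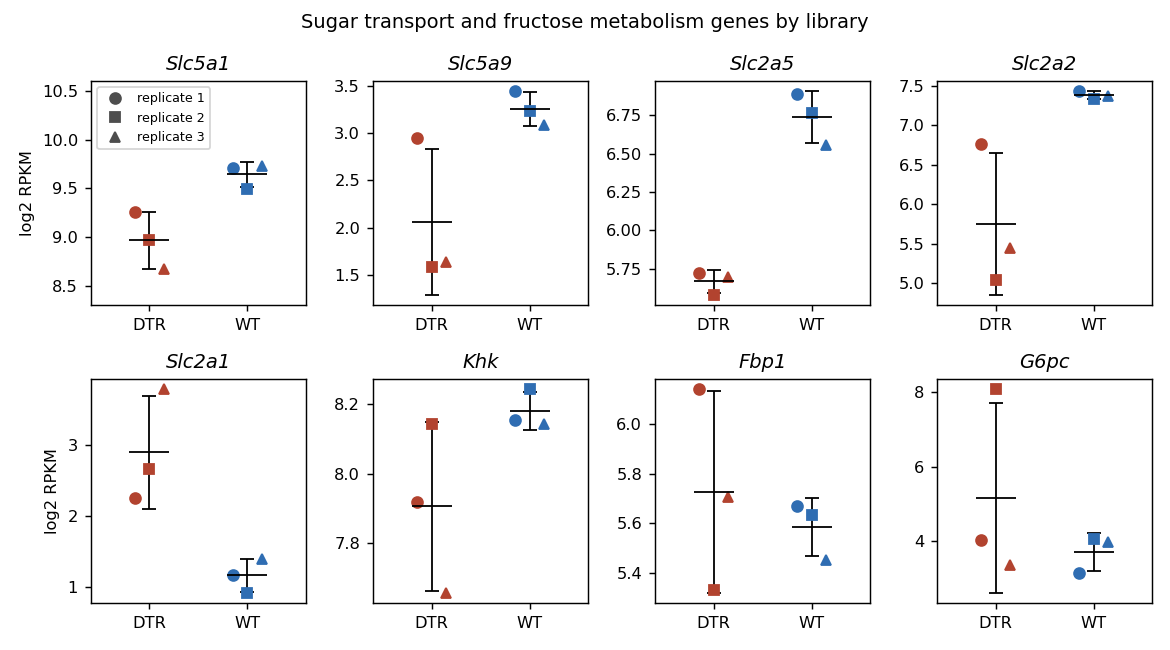
Log2 RPKM of the 8 genes in each DTR library (left, red) and WT library (right, blue). Each panel has its own vertical scale, the horizontal bar is the group mean and the error bar its SD over 3 libraries. DTR lies wholly below WT for Slc5a1, Slc5a9, Slc2a5, Slc2a2 and, narrowly, Khk, and wholly above it for Slc2a1, while Fbp1 and G6pc overlap.

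By level, Slc5a1 stood highest of the 8 genes in both groups and Khk was next in WT. WT means ran from 802 RPKM for Slc5a1 through 290 for Khk, 167 for Slc2a2, 107 for Slc2a5, 48.2 for Fbp1, 13.8 for G6pc and 9.61 for Slc5a9 to 2.27 for Slc2a1. Neighbours in this WT order did not overlap across libraries, apart from G6pc (8.82 to 16.7 RPKM) and Slc5a9 (8.49 to 10.9 RPKM). In DTR libraries the ranges of Slc2a2 (32.8 to 108 RPKM), Fbp1 (40.2 to 70.7 RPKM) and Slc2a5 (47.8 to 52.9 RPKM) overlapped. So did those of Slc2a1 (4.77 to 13.8 RPKM) and Slc5a9 (3.00 to 7.71 RPKM). The DTR range of G6pc (10.4 to 271 RPKM) overlapped those of Slc2a2, Fbp1, Slc2a5, Slc2a1 and Khk (202 to 283 RPKM).

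Promoter windows from RefSeq (GRCm38.p6, 250 bases before to 50 after the annotated start) matched 7 of the 8 genes, all but Slc5a9. The 5 printed here belong to the genes that passed, to Slc5a1 as the most abundant carrier and to G6pc as the gene set apart in DTR replicate 2. They lie at chr4:150119094-150119393 (Slc2a5), chr3:28697653-28697952 (Slc2a2), chr4:119108495-119108794 (Slc2a1), chr5:33103969-33104268 (Slc5a1) and chr11:101367466-101367765 (G6pc), all on the plus strand, and capitals mark matches to the motifs named after them.
Slc2a5: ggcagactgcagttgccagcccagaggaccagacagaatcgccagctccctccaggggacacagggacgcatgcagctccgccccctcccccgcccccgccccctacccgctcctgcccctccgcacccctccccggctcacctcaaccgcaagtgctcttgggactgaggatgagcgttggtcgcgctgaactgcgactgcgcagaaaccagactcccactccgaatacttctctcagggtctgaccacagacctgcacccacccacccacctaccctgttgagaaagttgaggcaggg
Slc2a2: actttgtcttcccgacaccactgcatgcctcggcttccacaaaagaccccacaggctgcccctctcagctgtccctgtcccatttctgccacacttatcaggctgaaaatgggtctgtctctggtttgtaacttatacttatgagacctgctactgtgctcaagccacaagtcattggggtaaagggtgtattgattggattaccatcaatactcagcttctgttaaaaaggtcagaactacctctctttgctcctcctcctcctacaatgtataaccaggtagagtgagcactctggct
Slc2a1: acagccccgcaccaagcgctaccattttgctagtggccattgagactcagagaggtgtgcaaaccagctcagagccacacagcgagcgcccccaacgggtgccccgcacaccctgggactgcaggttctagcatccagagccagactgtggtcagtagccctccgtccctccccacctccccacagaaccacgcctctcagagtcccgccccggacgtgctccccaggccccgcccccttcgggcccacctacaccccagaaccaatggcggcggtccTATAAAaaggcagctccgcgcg
Slc5a1: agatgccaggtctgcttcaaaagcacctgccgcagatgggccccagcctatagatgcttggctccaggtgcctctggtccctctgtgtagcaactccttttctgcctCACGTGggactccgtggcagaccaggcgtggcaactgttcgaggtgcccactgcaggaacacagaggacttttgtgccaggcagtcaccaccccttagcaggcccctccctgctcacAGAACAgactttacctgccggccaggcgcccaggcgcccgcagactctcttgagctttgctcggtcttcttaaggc
G6pc: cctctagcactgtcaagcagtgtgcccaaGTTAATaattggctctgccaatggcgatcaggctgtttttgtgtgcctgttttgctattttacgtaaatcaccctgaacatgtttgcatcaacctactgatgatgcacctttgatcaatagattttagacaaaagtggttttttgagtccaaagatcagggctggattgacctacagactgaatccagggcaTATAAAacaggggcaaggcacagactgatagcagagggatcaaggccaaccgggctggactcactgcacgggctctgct

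Exact matches on either strand were sought for 7 short words. Those were CACGTG, the E-box; GTTAAT, from the HNF1 element; CAAAGTC, from the HNF4 element; TTTATG, bound by CDX factors; and AGATAA, bound by factors of the Gata family. The word AGAACA, from the glucocorticoid receptor element, was sought too, and the TATA box word TATAAA was added after the sequences were seen. None of these words overlapped another in the windows shown. Relative to the annotated start, the Slc5a1 window held CACGTG at -143 and AGAACA at -26, which 7.15% and 19.0% of all 32851 promoter windows of this length contain. The G6pc window held GTTAAT at -221 and TATAAA at -29, which 7.10% and 13.6% of windows contain, and the Slc2a1 window held TATAAA at 28, after the start. Of the windows not shown, that of Khk held CACGTG and GTTAAT, and that of Fbp1 held AGATAA, which 11.2% of windows contain. No word was found in the Slc2a5 and Slc2a2 windows. CAAAGTC (4.44% of windows) and TTTATG (11.9%) were in none of the 7 windows.

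Slc2a5, the fructose carrier of the brush border (ENSMUSG00000028976.10, mm10 as for all positions given, chromosome 4, 150119283 to 150144169, plus strand), fell by a similar margin in all DTR libraries. It had 52.9, 47.8 and 52.0 RPKM in DTR replicates 1, 2 and 3, against 119, 109 and 94.0 RPKM in WT replicates 1, 2 and 3. The DTR libraries lay within a few RPKM of one another and every one was far below the lowest WT library. Its mean was 50.9 ± 2.70 RPKM in DTR and 107 ± 12.4 RPKM in WT (SD, n = 3 each), a log2 change of -1.07 (SE 0.13; 95% interval -1.38 to -0.76; limma adjusted p = 0.00893), and by p it ranked 185 among the 15563 tested genes. The call was kept in 17 of 19 other settings and lost without WT replicate 1 (limma adjusted p = 0.0571) or WT replicate 2 (0.0585).

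Slc2a2, the carrier of the blood side (ENSMUSG00000027690.13, chromosome 3, 28697903 to 28731359, plus strand), fell more on average but unevenly. Its levels were 108, 32.8 and 43.7 RPKM in DTR replicates 1, 2 and 3, and 172, 162 and 166 RPKM in WT replicates 1, 2 and 3. The WT libraries were nearly equal, DTR replicates 2 and 3 stood far below them, and DTR replicate 1 stood between. The log2 change was -1.63 (SE 0.42; 95% interval -2.64 to -0.62; limma adjusted p = 0.0435). It passed in 11 of 19 other settings; leaving out DTR replicate 1 gave -2.14 (limma adjusted p = 0.00291), while leaving out any other single library ended the call (log2 change -1.65 to -1.28, limma adjusted p 0.0755 to 0.129). Slc2a2 is also known from pancreatic beta cells, and of the 6 pancreatic genes followed none of the 5 tested passed. Their summed level was 6844 to 21780 RPKM in DTR and 9650 to 28792 RPKM in WT, with Ins2 at 23.3, 7.08 and 43.1 RPKM in DTR replicates 1, 2 and 3 and 5.98, 36.2 and 12.8 RPKM in WT replicates 1, 2 and 3; their part in the result was not tested.

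Slc5a1, the intestinal sodium-glucose carrier (ENSMUSG00000011034.6, chromosome 5, 33104219 to 33162870, plus strand), was lower in every DTR library but did not pass. It had 612, 500 and 408 RPKM in DTR replicates 1, 2 and 3, against 836, 722 and 846 RPKM in WT replicates 1, 2 and 3. The groups did not overlap, and the gap between the nearest libraries was smaller than the range within DTR. The log2 change was -0.68 (SE 0.19; 95% interval -1.14 to -0.22; limma adjusted p = 0.0541). It passed in 6 of 19 other settings, among them limma-voom on reads and the fit without DTR replicate 1 (log2 change -0.82, limma adjusted p = 0.0219).

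Slc5a9, which encodes the sodium-coupled mannose and glucose carrier SGLT4 (ENSMUSG00000028544.14, chromosome 4, 111875375 to 111902918, minus strand), was likewise highest among DTR libraries in replicate 1. Its values were 7.71, 3.00 and 3.11 RPKM in DTR replicates 1, 2 and 3, and 10.9, 9.44 and 8.49 RPKM in WT replicates 1, 2 and 3. DTR replicate 1 lay just under the lowest WT library and the other DTR libraries well below it. The log2 change was -1.20 (SE 0.38; 95% interval -2.10 to -0.30) and did not pass (limma adjusted p = 0.0690), whereas without DTR replicate 1 it was -1.64 (limma adjusted p = 0.00328).

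Slc2a1 (ENSMUSG00000028645.11, chromosome 4, 119108711 to 119137983, plus strand) went the other way. It had 4.77, 6.31 and 13.8 RPKM in DTR replicates 1, 2 and 3, against 2.26, 1.90 and 2.64 RPKM in WT replicates 1, 2 and 3. Every DTR library was above every WT library, DTR replicate 3 by the widest margin. The log2 change was 1.73 (SE 0.40; 95% interval 0.78 to 2.68; limma adjusted p = 0.0338). The call was kept in 15 of 19 other settings and lost without DTR replicate 2 (log2 change 1.85, limma adjusted p = 0.0542) or without WT replicate 1, 2 or 3 (limma adjusted p 0.101 to 0.115). Without DTR replicate 3, its highest library, the log2 change was 1.29 and passed (limma adjusted p = 0.0421). Within a library the RPKM of Slc2a1 over that of Slc2a2 was 0.0440, 0.193 and 0.316 in DTR replicates 1, 2 and 3 and 0.0131, 0.0117 and 0.0159 in WT replicates 1, 2 and 3.

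Markers of endothelium and of red cells were read beside Slc2a1. None of 6 endothelial markers passed. Their summed level was 6.64, 6.50 and 10.4 RPKM in DTR replicates 1, 2 and 3 and 5.04 to 9.32 RPKM in WT. Cldn5 lay wholly higher in DTR (log2 change 1.03, limma adjusted p = 0.0638), Tek wholly lower (-1.01, 0.0569), and the rest overlapped. Over all tested genes 25.1% lay wholly higher and 22.6% wholly lower, and 9.54% passed as higher and 8.74% as lower. Of 7 red cell markers 4 were tested and 2, the globin genes Hbb-bs and Hbb-bt, were lower, with a summed level of 7.04 to 44.3 RPKM in DTR and 76.0 to 107 RPKM in WT. Their part in the Slc2a1 result was not tested.

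Khk, the first enzyme of fructose breakdown (ENSMUSG00000029162.15, chromosome 5, 30921431 to 30931248, plus strand), did not pass in any setting. It had 242, 282.6 and 202 RPKM in DTR replicates 1, 2 and 3, against 285, 303 and 282.8 RPKM in WT replicates 1, 2 and 3. DTR replicate 2 all but reached the lowest WT library. The log2 change of -0.28 (SE 0.16; 95% interval -0.65 to 0.10; limma adjusted p = 0.234) missed the threshold, as it did in 19 other settings. The RPKM of Khk over that of Slc2a5 was 4.57, 5.91 and 3.88 in DTR replicates 1, 2 and 3 and 2.40, 2.79 and 3.01 in WT replicates 1, 2 and 3, so there was more Khk per Slc2a5 transcript in every DTR library.

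Fbp1, which removes a phosphate from fructose 1,6-bisphosphate on the way to glucose (ENSMUSG00000069805.10, chromosome 13, 62864753 to 62888282, minus strand), had 70.7, 40.2 and 52.2 RPKM in DTR replicates 1, 2 and 3, against 51.0, 49.7 and 43.8 RPKM in WT replicates 1, 2 and 3. The DTR libraries lay on both sides of the WT range. The log2 change of 0.14 (SE 0.21; 95% interval -0.37 to 0.65; limma adjusted p = 0.651) did not pass.

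G6pc, which releases free glucose in the last step of glucose synthesis (ENSMUSG00000078650.2, chromosome 11, 101367561 to 101377903, plus strand), was set apart by a single library. It had 16.5, 271 and 10.4 RPKM in DTR replicates 1, 2 and 3, against 8.82, 16.7 and 15.7 RPKM in WT replicates 1, 2 and 3. DTR replicate 2 held 40228 G6pc reads where the other 5 libraries held 1560 to 2881, and those other DTR libraries lay inside the WT range. The log2 change over all libraries was 1.44 (SE 1.18; 95% interval -1.39 to 4.28; limma adjusted p = 0.392) and without DTR replicate 2 it was -0.01 (SE 0.35; limma adjusted p = 0.979).

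Pck1, the cytosolic enzyme that commits carbon to glucose synthesis, was the gene whose library profile lay nearest to that of G6pc among 10131 genes with mean log2 RPKM above 0, predicted gene models left out. It had 77.1, 922 and 29.9 RPKM in DTR replicates 1, 2 and 3, against 40.2, 79.7 and 83.8 RPKM in WT replicates 1, 2 and 3. As with G6pc, DTR replicate 2 was far above all other libraries and the groups overlapped. Srebf1, a regulator of lipid synthesis, was second nearest, with 303 RPKM in DTR replicate 2, 34.4 and 39.4 RPKM in DTR replicates 1 and 3, and 16.9 to 19.6 RPKM in WT. Named after their values were seen, the glucose-6-phosphate carrier gene Slc37a4 had 53.5, 69.3 and 30.9 RPKM in DTR replicates 1, 2 and 3 and 44.6 to 48.0 RPKM in WT, and the sugar-responsive gene Txnip had 98.4, 361 and 189 RPKM in DTR and 69.1 to 90.9 RPKM in WT.

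G6pc, Pck1 and Fbp1 are also liver and kidney genes, and markers of both organs were read in the same libraries. The 7 liver markers summed to 6.94, 41.0 and 4.73 RPKM in DTR replicates 1, 2 and 3 and to 3.04 to 5.60 RPKM in WT, and none of the 3 tested passed. Of the sum in DTR replicate 2, Cyp2e1 made up 33.4 RPKM and Ttr 6.77 RPKM. Ttr had 4.10 to 6.77 RPKM in DTR and 2.31 to 3.40 RPKM in WT, without overlap, and did not pass (limma adjusted p = 0.0610). Albumin (Alb) stood at 0.167 RPKM in DTR replicate 2, Ahsg had 0 reads there, and Apoh, Serpina1a and Tat stood at no more than 0.642 RPKM in any library. The 5 kidney tubule markers summed to at most 0.111 RPKM in any library. The part of liver transcripts in the G6pc and Pck1 values was not tested.

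**Figure D2:**
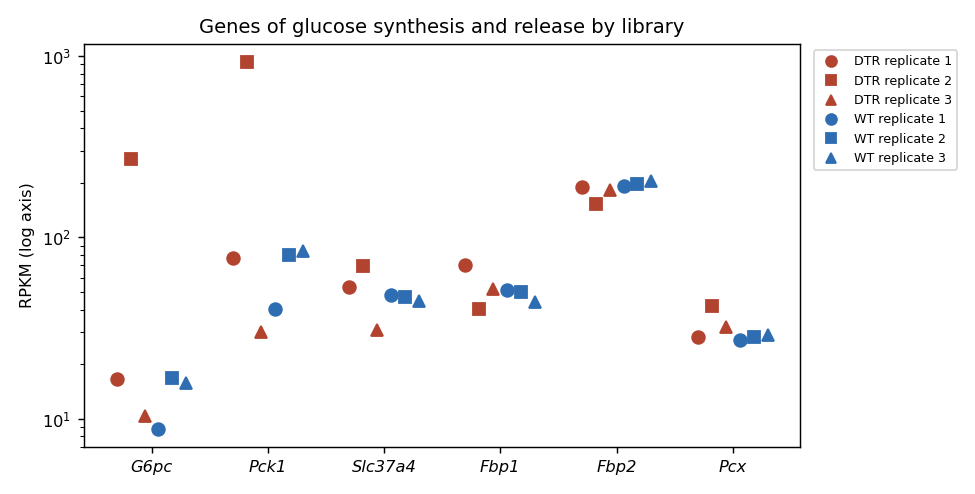
RPKM on a log axis of 6 genes of glucose synthesis and release, with DTR libraries in red and WT libraries in blue. DTR replicate 2 stands at 271 RPKM for G6pc and 922 RPKM for Pck1, far above the other 5 libraries, but lies below all WT libraries for Fbp1 and Fbp2.

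Of 9 genes of glucose synthesis and release beyond Fbp1 and G6pc, 8 were tested and none passed in either direction (median log2 change 0.16, against 0.03 for all tested genes). Among them the ubiquitous phosphatase G6pc3 had 8.42, 7.48 and 11.5 RPKM in DTR replicates 1, 2 and 3, against 6.79, 6.79 and 5.89 RPKM in WT replicates 1, 2 and 3 (log2 change 0.47, SE 0.19, limma adjusted p = 0.118). The mitochondrial enzyme Pck2 differed by 0.37 (limma adjusted p = 0.200), pyruvate carboxylase Pcx by 0.26 (0.275) and the phosphate antiporter Slc37a1 by -0.46 (0.0745).

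Downstream of Khk and along the sorbitol route 1 of 5 genes passed, as lower (median log2 change -0.21). Over all tested genes 8.74% passed as lower and 9.54% as higher. Tkfc, which phosphorylates glyceraldehyde, was lower in every DTR library without passing (68.8 ± 16.7 RPKM in DTR and 105 ± 1.45 RPKM in WT, SD, n = 3 each; limma adjusted p = 0.0541). The gene that passed was glycerate kinase, Glyctk (a change of -1.66 on the log2 scale, limma adjusted p = 0.0313). It had 0.997, 0.442 and 0.422 RPKM in DTR replicates 1, 2 and 3 and 1.84, 1.88 and 1.72 RPKM in WT replicates 1, 2 and 3. That call was lost without each single library apart from DTR replicate 1 (limma adjusted p 0.0588 to 0.110). It was also lost with a block for replicate number (limma adjusted p = 0.0552). Sord and Akr1b3, which interconvert glucose, sorbitol and fructose, differed by 0.10 and 0.58 on the log2 scale and did not pass.

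Other sugar carriers of the same families were mostly lower where they passed. Of 9 further GLUT genes 7 were tested. Of those 3 fell and none rose (median log2 change -0.78), where 8.74% of all tested genes passed as lower and 9.54% as higher. Slc2a7, whose product GLUT7 sits in the intestinal brush border, had 16.5, 5.20 and 8.26 RPKM in DTR replicates 1, 2 and 3, against 55.5, 53.8 and 49.6 RPKM in WT replicates 1, 2 and 3 (log2 change -2.57, SE 0.39, limma adjusted p = 0.0154). The urate carrier gene Slc2a9 had 3.83 to 6.27 RPKM in DTR and 10.3 to 11.4 RPKM in WT (log2 change -1.03, limma adjusted p = 0.0280). Slc2a6, known from leukocytes, had 0.275 to 0.451 RPKM in DTR and 1.67 to 4.01 RPKM in WT (log2 change -2.64, limma adjusted p = 0.0153). Beside it, 3 of 6 leukocyte markers were lower, and their summed level was 69.7 to 167 RPKM in DTR and 305 to 745 RPKM in WT; their part in the Slc2a6 result was not tested. Slc2a3, the neuronal carrier gene, averaged 0.277 ± 0.0770 RPKM in DTR and 0.464 ± 0.0580 RPKM in WT (SD, n = 3 each) and missed the threshold (limma adjusted p = 0.140). Slc2a12 and Slc2a13 stood at no more than 0.0711 RPKM in any library and were not tested.

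Beyond Slc5a1 and Slc5a9, 6 sodium-coupled sugar and inositol carrier genes were followed, a chosen list and not the whole family. The 4 that were tested all passed, 3 lower and 1 higher, with a median log2 change of -2.18. The shares over all tested genes were 8.74% lower and 9.54% higher. Slc5a4a had 6.28, 2.86 and 2.95 RPKM in DTR replicates 1, 2 and 3, against 56.1, 47.2 and 48.7 RPKM in WT replicates 1, 2 and 3, a log2 change of -3.75 (SE 0.31; limma adjusted p = 0.00496) that was kept in all 19 other settings. Slc5a4b, its close copy, had 4.99, 4.57 and 2.08 RPKM in DTR, against 34.6, 27.5 and 24.2 RPKM in WT (log2 change -2.97, SE 0.35, limma adjusted p = 0.00865). Reads of these paralogues can be shared, so the split between them is uncertain. The inositol carrier genes went opposite ways: Slc5a11 had 14.3 to 25.7 RPKM in DTR and 49.3 to 52.6 RPKM in WT (log2 change -1.38, limma adjusted p = 0.0160), whereas Slc5a3, which takes up inositol under osmotic stress, had 1.06 to 2.08 RPKM in DTR and 0.256 to 0.487 RPKM in WT (log2 change 2.08, limma adjusted p = 0.0208). Slc5a2, the kidney carrier gene, and Slc5a10 stood at no more than 0.398 RPKM and were not tested.

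Most of these carrier calls needed all 3 WT libraries, as did most calls over all tested genes. Those numbered 2845 in the main fit and 152, 157 and 207 without WT replicates 1, 2 and 3. Without WT replicate 1, 2 or 3, the calls of Slc2a6, Slc2a7, Slc2a9, Slc5a3 and Slc5a11 were lost (limma adjusted p 0.0548 to 0.106). That of Slc5a4b was lost without WT replicate 1 or 2 (0.0502 and 0.0523). That of Slc2a9 was also lost without DTR replicate 3 (0.0507) and with a block for replicate number (0.0536).

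**Figure D3:**
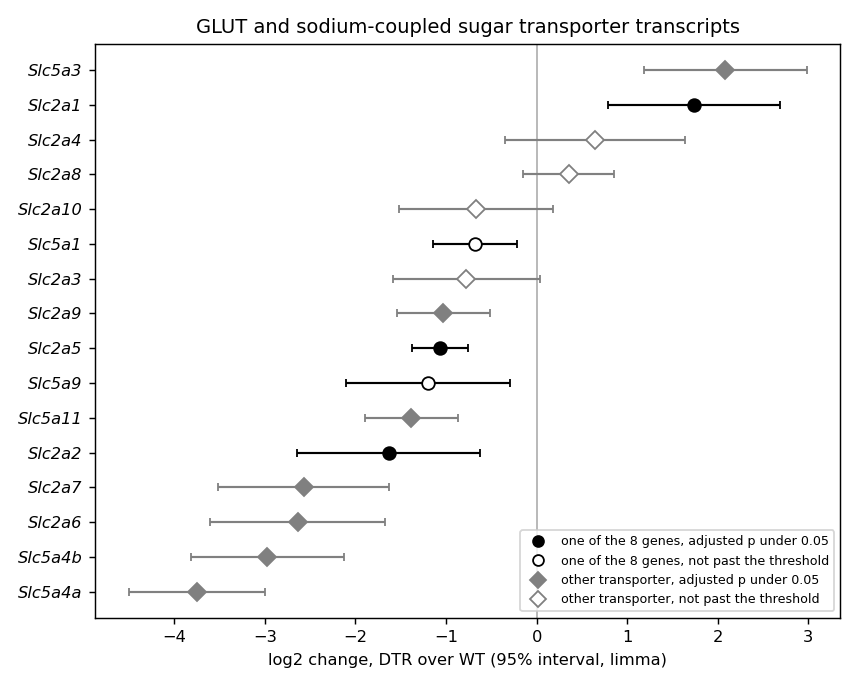
Log2 change of DTR over WT with its 95% interval from limma for the 16 tested GLUT and sodium-coupled carrier genes followed, ordered by size. Slc5a3 and Slc2a1 pass as higher, 8 genes down to Slc5a4a at -3.75 pass as lower, and open symbols did not pass.

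Disaccharidases release the sugars these carriers take up. Their calls, and those of the sodium pump genes, stand beside 8.74% of all tested genes that passed as lower and 9.54% as higher. Of 4 such genes 3 fell (median log2 change -0.87): sucrase-isomaltase Sis had 182 ± 48.9 RPKM in DTR and 424 ± 12.1 RPKM in WT (SD, n = 3 each; limma adjusted p = 0.0169), lactase Lct changed by -1.16 (0.0161) and maltase-glucoamylase Mgam by -0.59 (0.0485). Trehalase Treh had 249 to 281 RPKM in DTR and 332 to 371 RPKM in WT and missed the threshold (limma adjusted p = 0.0606). Of 4 sodium pump genes, whose gradient drives SGLT1, the beta subunit gene Atp1b1 had 337, 180 and 276 RPKM in DTR replicates 1, 2 and 3, against 592, 485 and 533 RPKM in WT replicates 1, 2 and 3 (log2 change -1.06, limma adjusted p = 0.0353). Of the others, Atp1b3 differed by 0.59 (limma adjusted p = 0.0618) and Fxyd3 by 0.50 (0.163). The calls of Sis, Lct, Mgam and Atp1b1 were lost without WT replicate 1, 2 or 3 (limma adjusted p 0.0648 to 0.162), those of Sis, Mgam and Atp1b1 also without DTR replicate 3 (0.0520 to 0.112) and that of Mgam also without DTR replicate 2 (0.0654). That of Mgam was also lost without the filter, with quantile normalization, with library totals alone, without the variance trend and with the replicate block. That of Atp1b1 was lost with quantile normalization (limma adjusted p 0.0571 to 0.126 for these settings of both genes).

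Markers of the epithelium and of its position along the gut were read in the same libraries. Of 8 epithelial markers Vil1 was lower, Krt18 was higher and 6 did not pass, and their summed level was 3961 to 5166 RPKM in DTR and 3738 to 4126 RPKM in WT. None of 10 enterocyte markers passed (20826 to 37731 RPKM summed in DTR and 21901 to 26150 RPKM in WT). Fabp1, Fabp2 and Ace lay wholly lower in DTR (log2 change -0.66, -0.86 and -0.84), Apoa1 wholly higher (1.08), and the rest overlapped. Among all tested genes 22.6% lay wholly lower and 25.1% wholly higher, and 8.74% passed as lower and 9.54% as higher. Of the sum in DTR replicate 2, Apoa1 made up 20313 RPKM. Of 7 markers of proximal small intestine, where sugar uptake is greatest, Cybrd1 was higher (log2 change 3.43) and Cck lower (-1.44). The 7 summed to 3321 to 4638 RPKM in DTR and 5130 to 6563 RPKM in WT. Fabp1, also an enterocyte marker, made up most of that sum (2872 to 4016 RPKM in DTR and 4815 to 6261 RPKM in WT). Onecut2 lay wholly lower in DTR without passing, while Gata4, Gip and Pdx1 overlapped. The part of these markers in the sugar gene results was not tested. With each library centred on the mean log2 level of the epithelial markers, Slc5a1 also passed as lower (log2 change -1.04, limma adjusted p = 0.0451), and Slc2a5 (-1.44, 0.0114), Slc2a2 (0.0419) and Slc2a1 (1.37, 0.0380) kept their calls. That centring shifted the median of all tested genes to -0.34 and gave 545 higher and 1962 lower calls, against 1485 higher and 1360 lower without it.

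Among regulators, several enterocyte and sugar-response factors were lower. Of 12 genes 4 fell and 1 rose (median log2 change -0.32), beside 8.74% lower and 9.54% higher calls among all tested genes. Values lay wholly lower in DTR for 6 and wholly higher for 4, against 22.6% and 25.1% of all tested genes. Among the wholly higher, Txnip (log2 change 1.21, limma adjusted p = 0.0991), Arrdc4 (0.68, 0.0514) and Creb3l3 (0.71, 0.0720) did not pass. Mlxipl, which encodes the sugar-sensing factor ChREBP, had 21.3, 11.8 and 19.7 RPKM in DTR replicates 1, 2 and 3, against 35.6, 35.4 and 41.0 RPKM in WT replicates 1, 2 and 3 (log2 change -1.13, SE 0.24, limma adjusted p = 0.0284). Its partner Mlx, named after its values were seen, changed by -0.57 (0.0343), the enterocyte factor Hnf4g by -1.36 (0.0269) and the coactivator Ppargc1a by -1.85 (0.0243). Foxo1, a factor that insulin holds out of the nucleus, had 5.62, 11.97 and 8.45 RPKM in DTR, against 3.41, 3.24 and 3.36 RPKM in WT (log2 change 1.31, limma adjusted p = 0.0281). All 5 calls were lost without WT replicate 1, 2 or 3 (limma adjusted p 0.0892 to 0.127). Those of Mlxipl, Hnf4g, Ppargc1a and Foxo1 were also lost without DTR replicate 3 (0.0569 to 0.0755), and those of Hnf4g and Mlx without DTR replicate 2 (0.0542 and 0.0504). That of Mlx was also lost without the filter and without the variance trend (limma adjusted p 0.0520 and 0.0588). With the replicate block the calls of Mlx and Foxo1 were lost (limma adjusted p 0.0748 and 0.0524).

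Some genes of central sugar metabolism passed, beside 9.54% of all tested genes that passed as higher and 8.74% as lower. Of 19 glycolysis genes 2 rose and 1 fell (median log2 change 0.10). Aldoa, the aldolase of most tissues, had 242, 154 and 209 RPKM in DTR replicates 1, 2 and 3, against 92.7, 92.2 and 85.4 RPKM in WT replicates 1, 2 and 3 (log2 change 1.14, limma adjusted p = 0.0167), and Pgk1 rose by 0.76 (0.0164). The pyruvate kinase gene Pklr, of liver and enterocytes, had 57.4, 27.5 and 58.0 RPKM in DTR and 96.0, 89.5 and 110 RPKM in WT (log2 change -1.12, limma adjusted p = 0.0491), and hexokinase Hk2 differed by 1.14 (0.0688). The 2 rises were lost with epithelial centring (limma adjusted p = 0.0815 for Aldoa and 0.101 for Pgk1). Of 7 pentose phosphate genes only transketolase Tkt passed, with 83.1 to 114 RPKM in DTR and 46.0 to 50.3 RPKM in WT (log2 change 0.98, limma adjusted p = 0.0149), while G6pdx, Rpe and Taldo1 differed by -0.73, -0.37 and 0.36. Of 12 galactose and glycogen genes 2 fell, the galactose mutarotase Galm (log2 change -0.87, limma adjusted p = 0.0331) and the glycogen phosphorylase Pygl (-1.64, 0.0124), and 10 did not pass. None of 5 genes for making or breaking fructose 2,6-bisphosphate passed, with Pfkfb3 at -1.13, Pfkfb4 at -0.65, Pfkfb2 at 0.52, Pfkfb1 at 0.32 and Tigar at 0.31, nor did any of 9 lipogenesis genes, among them Srebf1 (2.01), Elovl6 (-0.88), Me1 (-0.85) and Acaca (0.81). The calls of Aldoa, Pgk1, Pklr, Galm, Pygl and Tkt were lost without WT replicate 1, 2 or 3 (limma adjusted p 0.0628 to 0.151), and those of Aldoa, Pklr and Galm also without DTR replicate 3 (0.0508 to 0.0771). That of Pklr was also lost without the filter, with quantile normalization, with library totals alone and without the variance trend (limma adjusted p 0.0569 to 0.0653). With the replicate block the calls of Pklr, Galm and Pgk1 were lost (limma adjusted p 0.0536, 0.0577 and 0.0510).

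**Figure D4:**
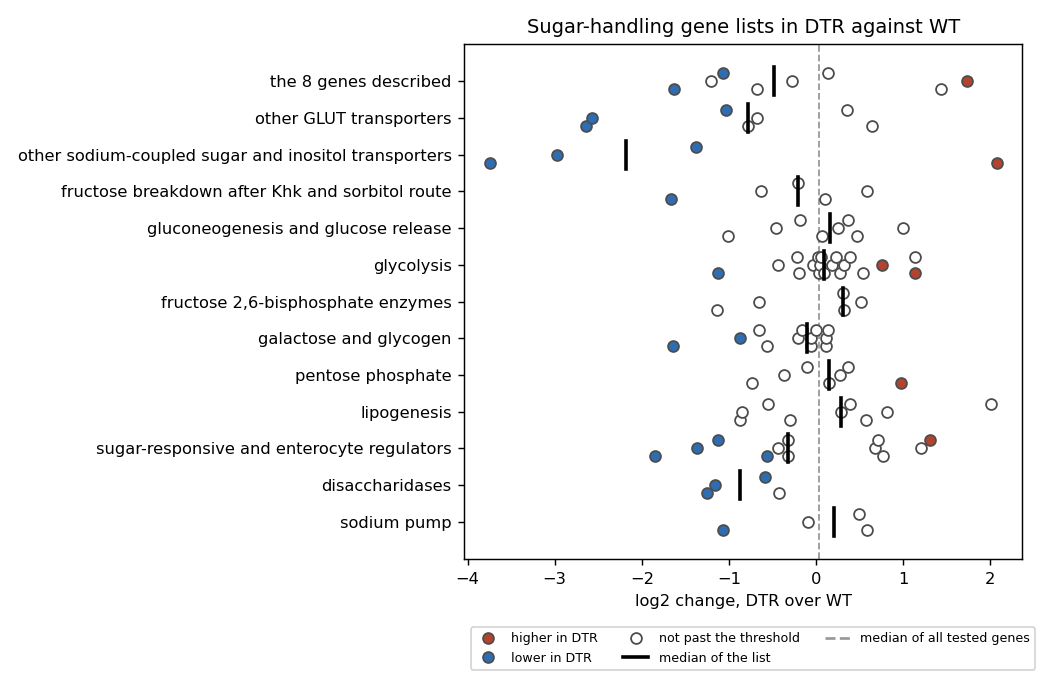
Log2 change of DTR over WT for every tested gene of the 8 described and of 12 lists around them. Red circles passed as higher, blue circles as lower and open circles did not pass, black bars are list medians and the dashed line is the median of all tested genes at 0.03.

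Likeness of profile was measured as the Euclidean distance between log2 RPKM values over the 6 libraries, each gene centred on its own mean. The nearest to Slc2a5 were the hormone gene Sct (distance 0.21), Rcn1 (0.22) and Hccs (0.25), to Slc2a2 Scoc (0.12), Coa4 (0.17) and Usp40 (0.22), to Slc5a1 Zfp182, Sptssa and Zranb2 (0.11 to 0.13), and to Slc2a1 Chaf1b, Prag1 and Plk3 (0.40 to 0.47). Slc5a9 lay nearest to Dcun1d2, Zfp866 and Atg4c (0.23 to 0.28), Khk to Rc3h2, Itfg1 and Snap29 (0.09 to 0.13) and Fbp1 to Ccnd2, Atp2c2 and Ptrh2 (0.14 to 0.15). Those nearest to G6pc were more distant, at 0.76 for Pck1, 1.54 for Srebf1 and 1.58 for Slc6a3. With 6 libraries in 2 groups such likeness is a description only.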

How the data were processed

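The authors deposited log2 RPKM values for 55487 genes in 6 libraries. The submitters' processing notes name STAR, Subread, featureCounts, edgeR, FastQC and MultiQC and the build mm10; versions, annotation release and strand setting: not given in the sources used here. A second deposited table gives each library's reads in genes and its normalization factor, a ratio. The log2 values were turned back with a prior count of 0.25 adjusted to each library's depth, which gave whole numbers of reads for 100% of values (tolerance 0.001), with sums equal to the deposited totals of 61404574 to 76596766. RPKM and read numbers in the text come from these. The 8 genes had 407 to 263334 reads per library, so counting error is small beside the spread between libraries.

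Columns were matched by label. For the sample with the title WT2 the description reads WT1, so telling WT replicates 1 and 2 apart relies on titles. As nothing states that libraries come from different animals, p-values speak only to the spread among these samples, possibly technical. Replicates within a group differed far beyond counting noise (chi-square 69.1 to 396 per gene), so no pair was counted as 1 sample; this does not show that they are separate animals.

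The test was limma 3.58.1 in R 4.3.3 on the deposited log2 values, DTR over WT, with a variance trend, two-sided, over 15563 genes with mean log2 RPKM above -2, Benjamini-Hochberg adjusted at 0.05; fold changes include the small prior count. The fit was tested on simulated data drawn with the same spread in both groups. Replicates here differed more within DTR (chi-square 195 to 396 per gene) than within WT (69.1 to 149). The simulation does not cover such a difference. The 8 genes, the lists and the tests were chosen with earlier results of these data known. Named beyond the 8 genes were, per list, the 4 tested genes with the smallest p, all tested genes of lists with 5 or fewer, and the 3 nearest profiles per gene. Slc37a4, Fbp2, Mlx, Txnip, Arrdc4, Creb3l3, genes that were not tested, single markers and the sex-linked genes were named after their values were seen. Some genes that this rule names are not reported here. Positions are 1-based from GENCODE M21, on the same build. The antisense gene Gm12868, with 16 reads in all, was the only annotated gene whose exons overlapped those of the 8 genes. Alternatives were pseudocounts of 0.1 and 1, other filters, scalings and variance models, limma-voom on recovered reads, a block for replicate number, and fits without each library in turn.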

Additional observations from a re-analysis of the deposited data

How the results depend on the processing

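Settings that kept all 6 libraries kept the direction of each of the 8 genes, apart from Fbp1 under epithelial centring (log2 change -0.23). Leaving out a library gave -0.068 to 0.339 for Fbp1, below 0 without DTR replicate 1, and -0.0149 to 2.34 for G6pc, below 0 without DTR replicate 2. Of 152 values for single genes under other settings, 126 stayed on the same side of the threshold and of 0, 14 lost a call, 9 gained one and 3 turned. Among the 8 genes 2 were called lower; that count was 1 with quantile normalization, without the variance trend and with the replicate block, 4 with array weights and with limma-voom on reads, and 0 to 4 when a library was left out. The count called higher among the 8 was 0 to 1 when a library was left out and stayed at 1 in the other settings. Over all tested genes, 2845 passed, 4862 with array weights, 1161 with the replicate block and 152 to 5605 when a library was left out: 5605 without DTR replicate 1, 1010 without DTR replicate 3, and 152, 157 and 207 without WT replicates 1, 2 and 3. The main fit and the fits without a library assume the same spread in both groups. The SD of log2 RPKM in DTR and WT was 0.899 and 0.0467 for Slc2a2 and 0.796 and 0.238 for Slc2a1. For Slc2a5 it was smaller in DTR, at 0.0777 and 0.170. Same-numbered libraries deviated from their group means with correlations of -0.0109, -0.00244 and 0.165, and not every library correlated best with its own number, so replicate numbers were not taken as pairs; under the replicate block Slc2a2 was lost while Slc2a5 and Slc2a1 were called. Of 23 called genes in the lists around the 8, 23, 19 and 11 were kept without DTR replicates 1, 2 and 3, and 1, 1 and 2 without WT replicates 1, 2 and 3.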
